A study of Mus musculus with 10 samples.

Results

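The 10 genes of branched-chain amino acid breakdown were followed in the livers of mice with and without the glucagon receptor. They were chosen by name, as probes whose gene name in the array files was Bckdha, Bckdhb, Bckdk, Dbt, Ivd, Mccc1, Mccc2, Hibch, Acadsb or Pcca. All 10 of 10 genes were measured, by 15 probes, among 18934 genes in all. The KO group held 5 livers of mice lacking Gcgr, the receptor for the fasting hormone glucagon, from 3 females (KO 2, KO 3 and KO 4) and 2 males (KO 1 and KO 5). The WT group held 5 livers of mice with both Gcgr alleles intact, from 2 females (WT 3 and WT 4) and 3 males (WT 1, WT 2 and WT 5). Strain, age, diet, feeding state and the deleted part of Gcgr are not given in the sources used here. Each value is a log2 ratio of liver RNA, labelled with Cy5, over a universal mouse reference RNA, labelled with Cy3 on every array. A ratio above 0 means more signal from liver than from the reference, and ratios of different probes cannot be set against each other as levels.

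Leucine, isoleucine and valine lose their amino group to a branched-chain aminotransferase, and the resulting keto acids are committed to breakdown by the branched-chain keto acid dehydrogenase complex of mitochondria. Liver is known for a high activity of this complex and a low activity of the aminotransferase. The complex is built on a core of DBT (E2), which carries lipoic acid, with BCKDHA and BCKDHB forming the decarboxylase (E1) and DLD the shared E3. BCKDK, a kinase, switches the complex off by phosphorylating BCKDHA, and the phosphatase PPM1K switches it on again. Beyond the complex, each amino acid has its own acyl-CoA dehydrogenase step, and carbon from isoleucine and valine leaves through propionyl-CoA carboxylase.

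Promoter windows were looked up because the kinase and the phosphatase act in opposition on the complex and because glucagon signalling acts in liver through cAMP and the factor CREB, whose site TGACGTCA contains the half-site TGACG. The windows below are from RefSeq on GRCm38.p6, run 5′ to 3′ along the gene from 250 bases before to 50 bases after its start, and have TGACG on either strand in capitals. They are of Ppm1k (chr6:57535438-57535737, minus strand), Bckdk (chr7:127903823-127904122, plus strand) and Acadsb (chr7:131410351-131410650, plus strand), which removes hydrogen from the isoleucine-derived acyl-CoA.
Ppm1k: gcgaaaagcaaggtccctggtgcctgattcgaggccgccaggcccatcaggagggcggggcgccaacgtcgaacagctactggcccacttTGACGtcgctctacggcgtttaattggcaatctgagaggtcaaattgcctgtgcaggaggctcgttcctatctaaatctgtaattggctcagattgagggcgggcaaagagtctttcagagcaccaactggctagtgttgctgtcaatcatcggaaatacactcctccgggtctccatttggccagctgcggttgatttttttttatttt
Bckdk: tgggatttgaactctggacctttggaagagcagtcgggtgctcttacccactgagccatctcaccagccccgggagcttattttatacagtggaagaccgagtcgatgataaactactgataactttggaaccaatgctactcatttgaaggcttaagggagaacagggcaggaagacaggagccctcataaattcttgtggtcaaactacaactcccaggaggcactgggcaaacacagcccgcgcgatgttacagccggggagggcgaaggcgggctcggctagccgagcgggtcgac
Acadsb: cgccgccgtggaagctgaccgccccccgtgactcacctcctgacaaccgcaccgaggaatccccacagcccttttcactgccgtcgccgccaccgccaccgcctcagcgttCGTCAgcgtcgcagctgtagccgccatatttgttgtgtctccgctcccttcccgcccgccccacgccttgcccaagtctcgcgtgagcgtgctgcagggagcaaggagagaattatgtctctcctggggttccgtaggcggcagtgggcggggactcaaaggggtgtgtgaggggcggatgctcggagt

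The Ppm1k window held 1 half-site, 160 bases before the start, the Acadsb window held 1, 139 bases before it, and the Bckdk window held 0. Windows were found for 9 of the 10 enzymes, all but Dbt, and 2 of these 9 genes had a half-site, Acadsb and, in 1 of its 2 windows, Pcca. Among other genes of the pathway 3 of the 14 with a window had one, Ppm1k, Dld and Mcee. Of all 32851 windows of this length 20.8% held TGACG and 1.79% held the full TGACGTCA, which none of the windows of the 10 enzymes held. A match of letters is a description of the window and says nothing on binding.

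Gcgr matched the label of every liver, with log2 ratios of 0.28 to 0.36 in KO livers and 7.74 to 8.14 in WT livers. The arrays lay on 4 slides. Slide 1 held KO 1, KO 2, WT 1 and WT 2, slide 2 held KO 3 and KO 4, slide 3 held KO 5, WT 3 and WT 4, and slide 4 held WT 5. Slides 1 and 2 were brighter, with a median net signal in Cy5 of 112 to 134, against 58.7 to 78.9 for slides 3 and 4. Differences are KO minus WT from a limma model with genotype and sex, and a gene passed when its p, adjusted by Benjamini-Hochberg over all genes, was under 0.05. Of the 18934 genes 1128 passed, which is 5.96%, with 545 higher and 583 lower in KO livers.

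Of the 10 enzymes 1 passed, Dbt, which fell. Among all genes 5.96% passed, and 3.08% passed as lower in KO livers. The other 9 did not pass, and Dbt was also the single member whose KO and WT livers did not overlap, against 6.05% of all genes. In 8 of 10 the difference was below 0, compared with 50.7% of all genes. The median difference over the 10 was -0.20, beside 0.00 over all genes. Before adjustment 5 of 10 had p under 0.05 (Bckdhb, Dbt, Mccc1, Mccc2 and Acadsb), all with lower values in KO livers, compared with 20.9% of all genes in either direction and 10.3% as lower. All 15 probes were well above background in all 10 livers and none was saturated. The smallest difference that would have passed lay between 0.23 and 0.42 for the 10 genes, and stood at 0.32 for Bckdhb and 0.27 for Mccc1.

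**Figure D1:**
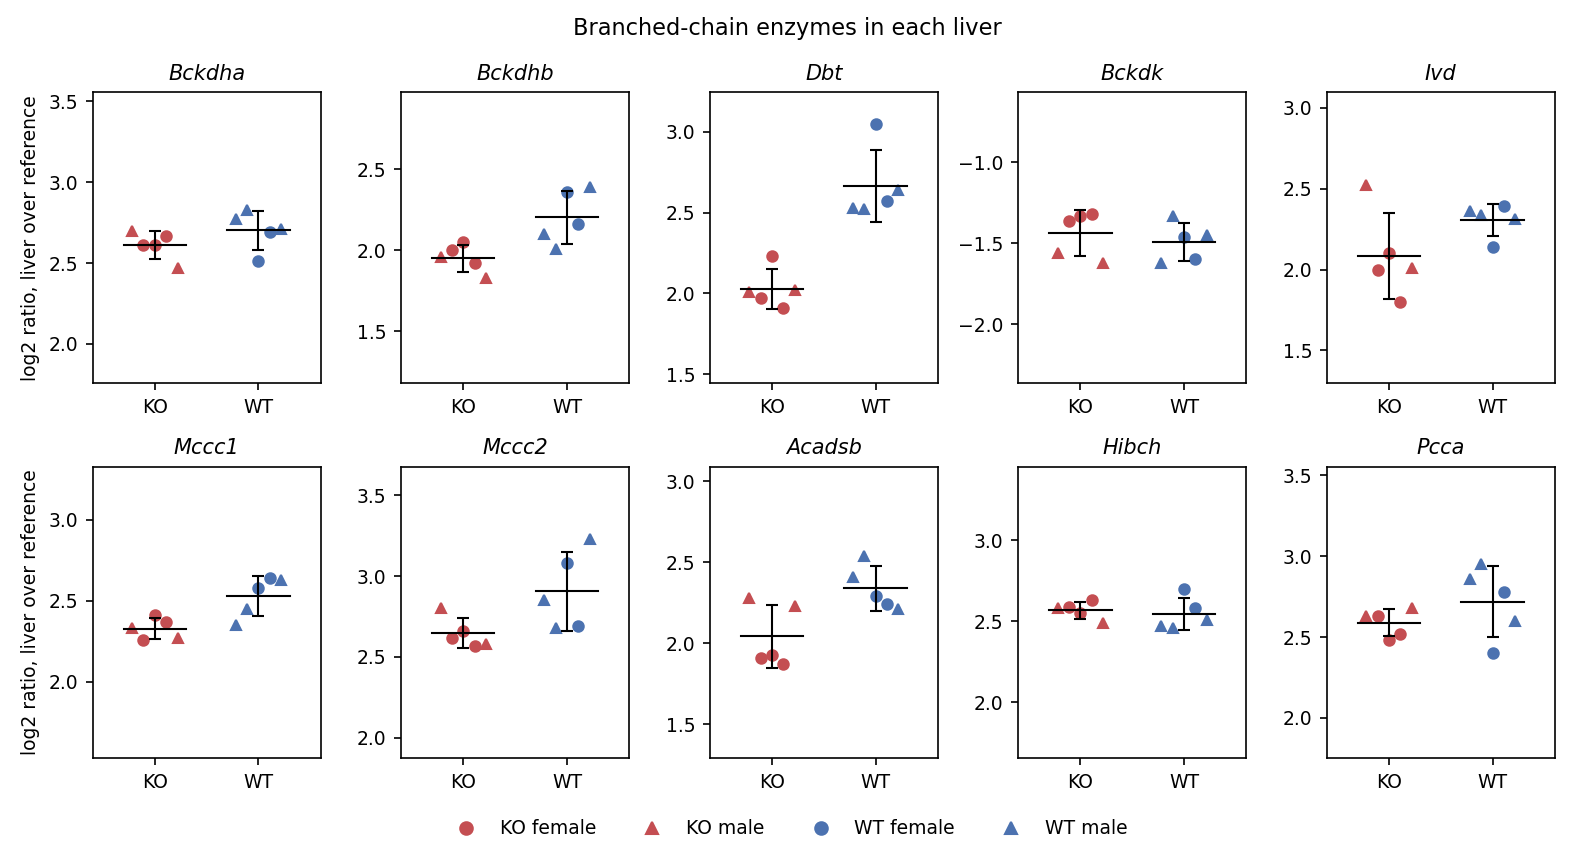
Log2 ratio of liver over reference RNA for each of the 10 enzymes, one panel a gene, with KO livers on the left and WT livers on the right, circles for females and triangles for males, and lines for the group mean ± SD (n = 5 each). The vertical axis spans the same height in every panel, and Dbt is the panel in which the groups separate, with KO livers up to 2.23 and WT livers from 2.52.

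Dbt, the E2 core of the dehydrogenase complex, stood at log2 ratios of 2.01, 1.97, 2.23, 1.91 and 2.02 in KO livers 1 to 5, and at 2.53, 2.52, 3.05, 2.57 and 2.64 in WT livers 1 to 5. Every KO liver was lower than every WT liver, and WT 3 stood above the other WT livers. The means were 2.03 ± 0.12 in KO livers and 2.66 ± 0.22 in WT livers (SD, n = 5 each). The fitted difference was -0.66 (SE 0.10, 95% interval -0.89 to -0.43, limma adjusted p = 0.00435), which is 1.58-fold lower in KO livers. An exact two-sided permutation test over the 252 ways to pick 5 of 10 livers, without sex, gave p = 0.00794, the smallest it can give, while the other 9 enzymes gave 0.0159 to 0.611, all unadjusted over 10 tests. In whole liver, fewer cells that express a gene and less RNA per cell cannot be told apart.

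Dbt had a single probe on the array, at chr3:116322421-116322480 on the plus strand of build mm7, the build that the file headers name, and no other probe could be set beside it. Exon and intron positions of that build were not used here. The probe was dim, with a net signal of 372 to 826 in Cy5 and 59.6 to 87.5 in Cy3. The fall was -0.54 without WT 3 (limma adjusted p = 0.0102), so it did not rest on that liver. With slide as a fixed block it was -0.62 (adjusted p = 0.0286), within slide 1 it was -0.53, and within slide 3 it was -0.79. Neither slide on its own passed (adjusted p = 0.159 and 0.081), with 2 KO and 2 WT livers on slide 1 and 1 KO and 2 WT livers on slide 3. Dbt also did not pass when arrays were centred on their median in place of loess (-0.49, adjusted p = 0.0981), or when outlier-flagged spots were removed after the background fit (-0.50, adjusted p = 0.322).

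The E1 subunits that sit on the same core differed less. Bckdhb, the E1 beta subunit (probe at chr9:84220558-84222203, mm7), had log2 ratios of 1.96, 2.0, 2.05, 1.92 and 1.83 in KO livers and 2.1, 2.01, 2.36, 2.16 and 2.39 in WT livers. The groups overlapped, since WT 2 lay below KO 3. Its difference of -0.27 (SE 0.08, 95% interval -0.45 to -0.08) did not pass in limma (adjusted p = 0.09), and a second probe gave -0.22. Bckdha, the phosphorylated E1 alpha subunit (probe at chr7:22403831-22403890, mm7), had 2.70, 2.61, 2.61, 2.67 and 2.47 in KO livers and 2.77, 2.83, 2.51, 2.69 and 2.71 in WT livers. The groups overlapped, the difference was -0.08 (SE 0.08, 95% interval -0.24 to 0.09, adjusted p = 0.63), and its second probe gave -0.11. Dld, the E3 subunit that the pyruvate and oxoglutarate complexes also use, differed by -0.03 (SE 0.08, adjusted p = 0.876). Its other probes gave -0.16 and -0.27, and neither passed.

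Setting Dbt against its partners within each liver removes what all probes of an array share. The value of such a difference has no meaning as a level, but its position in KO and in WT livers can be compared. Dbt minus Bckdha was -0.76 to -0.38 in KO livers and -0.31 to 0.54 in WT livers. Dbt minus Bckdhb was -0.03 to 0.19 in KO livers and 0.25 to 0.69 in WT livers. Dbt minus Dld was 1.47 to 1.84 in KO livers and 1.96 to 2.63 in WT livers. In these 3 comparisons within the complex the groups did not overlap and the KO livers were lower, with mean differences of -0.54, -0.38 and -0.61. Against the other 7 enzymes and regulators of the 10, the groups did not overlap for Bckdk, Ivd, Mccc1 and Hibch, and overlapped for Mccc2 (-0.78 to -0.43 in KO livers, -0.60 to -0.03 in WT livers), Acadsb (-0.27 to 0.30 in KO livers, -0.03 to 0.76 in WT livers) and Pcca (-0.66 to -0.24 in KO livers, -0.44 to 0.65 in WT livers). Dbt was picked for these after its fall was known, so they are given without a test. Dbt alone already separated the groups (up to 2.23 in KO livers, from 2.52 in WT livers). Taking away a gene that differed little largely keeps that gap, so the lack of overlap adds no separate result.

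The kinase of the complex did not pass, while its phosphatase fell. Bckdk (probe at chr7:124004844-124004903, mm7), the kinase, had log2 ratios of -1.56, -1.36, -1.33, -1.32 and -1.62 in KO livers and -1.62, -1.33, -1.46, -1.60 and -1.45 in WT livers. The groups covered the same range, and the difference was 0.04 (SE 0.09, 95% interval -0.15 to 0.22, limma adjusted p = 0.861). Its sign turned with the setting, from -0.12 to 0.19 over 27 alternatives, none of which passed. Ppm1k, the phosphatase, which is not one of the 10, had 3.79, 3.32, 3.13, 3.25 and 3.06 in KO livers and 3.56, 4.09, 4.23, 3.99 and 4.01 in WT livers. The groups overlapped through KO 1 and WT 1. Both are male and on slide 1, as is WT 2, which at 4.09 lay above all KO livers. Ppm1k fell by 0.67 on the log2 scale (SE 0.16, limma adjusted p = 0.0299), 1.59-fold lower in KO livers, and its second probe gave -0.68 (adjusted p = 0.0179). The Ppm1k call held in 13 of 27 alternatives and the Dbt call in 22. That of Ppm1k was lost with slide as a fixed block (-0.57, adjusted p = 0.13), held with slide as a random block (-0.64, adjusted p = 0.029), and was lost when any 1 of KO 2 to 5 or WT 2 to 4 was left out (adjusted p up to 0.108, without WT 3). Within slide 1 Ppm1k differed by -0.27, and within slide 3 by -1.05. The difference between Ppm1k and Bckdk was not tested.

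**Figure D2:**
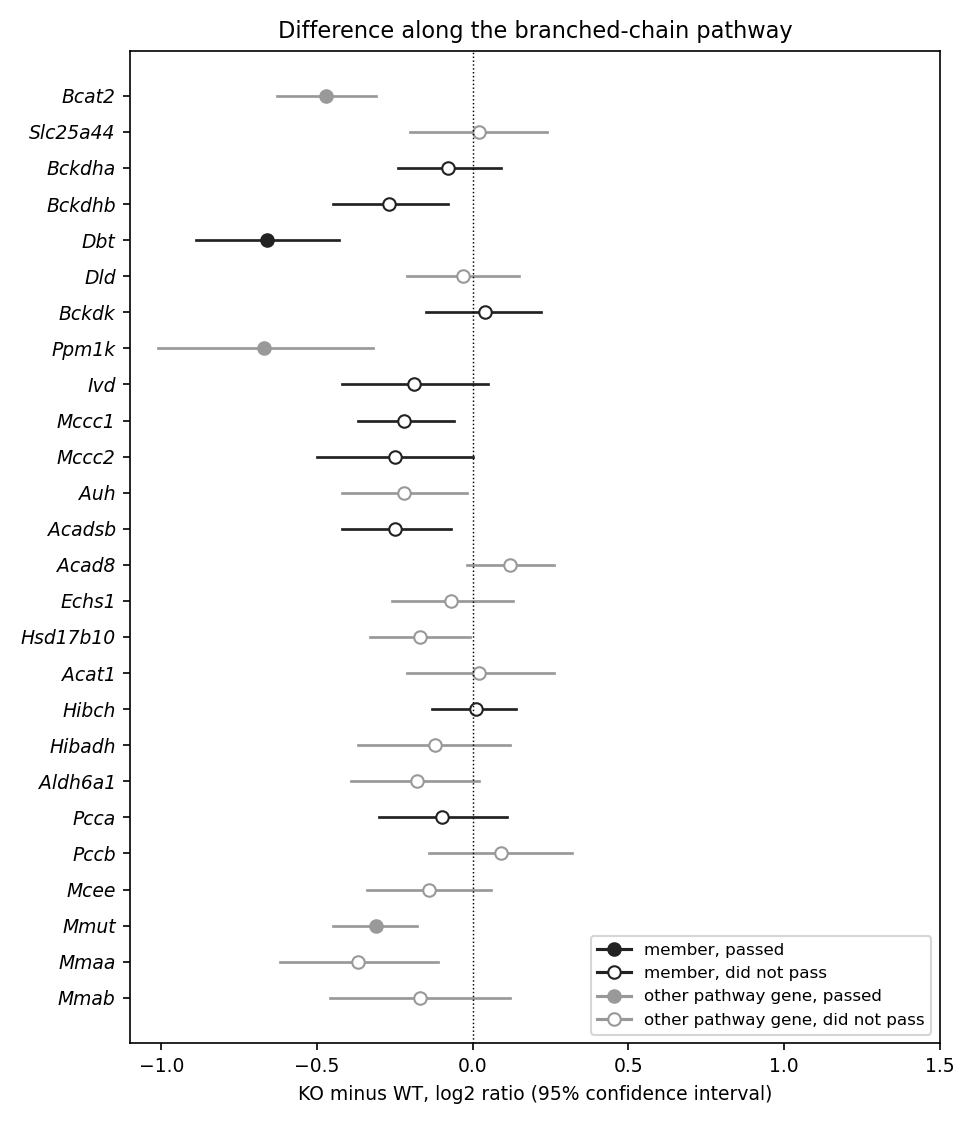
Difference KO minus WT in log2 ratio (points) with its 95% confidence interval (lines) for the 10 enzymes in black and other genes of the pathway in grey, ordered down the page from the aminotransferase to the vitamin B12 enzymes, with filled points for genes that passed. Dbt (-0.66) is the filled black point, and Bcat2 (-0.47), Ppm1k (-0.67) and Mmut (-0.31) are the filled grey ones.

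On the leucine branch the 3 enzymes lay below 0, and none passed by the probe that represents it. Ivd (probe at chr2:118622111-118622170, mm7), isovaleryl-CoA dehydrogenase, had log2 ratios of 2.52, 2.0, 2.1, 1.80 and 2.01 in KO livers and 2.36, 2.34, 2.14, 2.39 and 2.31 in WT livers. KO 1 was the highest of all 10 livers and the other 4 KO livers lay below every WT liver. The difference was -0.19 (SE 0.11, limma adjusted p = 0.372). A second Ivd probe, at chr2:118621382-118621441, had 2.06, 1.91, 2.08, 1.67 and 1.54 in KO livers and 2.24, 2.34, 2.29, 2.23 and 2.73 in WT livers. By that probe the groups did not overlap, and it fell by 0.50 (SE 0.13, limma adjusted p = 0.048 over 26956 probes, of which 5.58% passed). The pair of Ivd probes thus gave different calls, and their difference was not tested. The second probe was the dimmer one, with a net Cy5 signal of 834 to 2110 against 6050 to 13400 for the first.

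Mccc1 (probe at chr3:35767088-35767147, mm7) and Mccc2 (probe at chr13:97031564-97034454, mm7) form methylcrotonyl-CoA carboxylase, the next step of leucine breakdown, with the biotin on MCCC1. Mccc1 had log2 ratios of 2.33, 2.26, 2.41, 2.37 and 2.27 in KO livers and 2.35, 2.45, 2.58, 2.64 and 2.63 in WT livers. Only WT 1 reached into the range of the KO livers. The difference was -0.22 (SE 0.07, limma adjusted p = 0.104), and a second probe also gave -0.22. Mccc2 had 2.80, 2.62, 2.66, 2.57 and 2.58 in KO livers and 2.85, 2.68, 3.08, 2.69 and 3.23 in WT livers, so that KO 1 overlapped with WT 2 and WT 4. Its difference was -0.25 (SE 0.11, adjusted p = 0.232). The second Mccc2 probe gave -0.13, with a reference signal above background on 4 of 10 arrays.

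**Figure D3:**
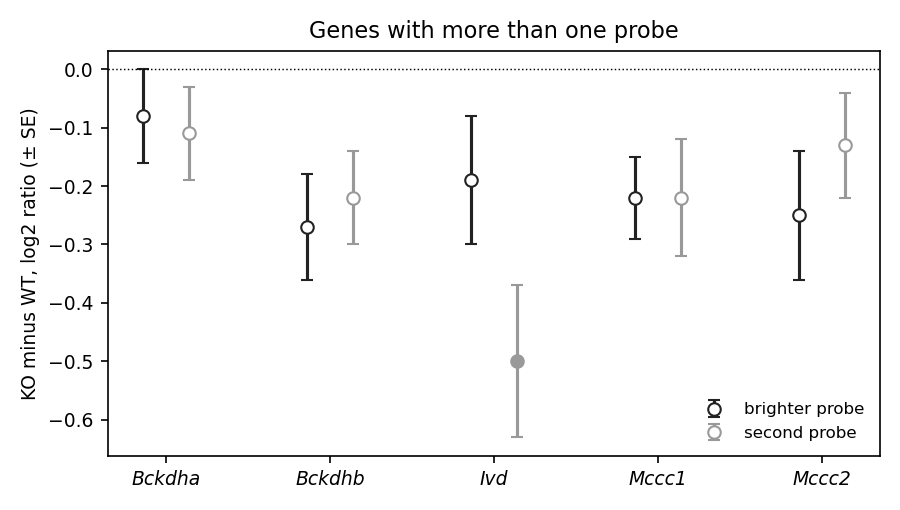
Difference KO minus WT in log2 ratio (points) ± SE for the 5 enzymes that have a brighter probe (black, used to represent the gene) and a second probe (grey), with filled points for probes that passed. The probes of a gene lie on the same side of 0 in all 5 genes, and Ivd shows the widest gap, -0.19 and -0.50.

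Acadsb (probe at chr7:127802387-127802446, mm7), the short/branched-chain acyl-CoA dehydrogenase of isoleucine breakdown, had log2 ratios of 2.28, 1.91, 1.93, 1.87 and 2.23 in KO livers and 2.41, 2.54, 2.29, 2.24 and 2.21 in WT livers. The 3 female KO livers were the lowest of all 10, and both male KO livers overlapped with WT livers. The difference was -0.25 (SE 0.08, 95% interval -0.42 to -0.07, limma adjusted p = 0.0983). Without WT 5, the liver alone on its slide, it passed at -0.30 (adjusted p = 0.0246). Hibch (probe at chr1:53154213-53154272, mm7), the hydrolase of valine breakdown, had 2.58, 2.59, 2.55, 2.63 and 2.49 in KO livers and 2.47, 2.46, 2.70, 2.58 and 2.51 in WT livers. The groups overlapped throughout, with a difference of 0.01 (SE 0.06, 95% interval -0.13 to 0.14, adjusted p = 0.977), the narrowest spread of the 10 enzymes. Pcca (probe at chr14:117216765-117280340, mm7), the biotin-bearing subunit of propionyl-CoA carboxylase, had 2.63, 2.63, 2.48, 2.52 and 2.68 in KO livers and 2.86, 2.95, 2.40, 2.78 and 2.60 in WT livers. The lowest of all was WT 3 and the difference was -0.10 (SE 0.09, 95% interval -0.30 to 0.11, adjusted p = 0.611).

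Each gene's ratios were centred on its own mean over the 10 livers and averaged over the enzymes, which gave -0.15 to -0.02 in KO livers and 0.07 to 0.14 in WT livers. KO 1 came closest to the WT livers, with 5 of 10 enzymes below their mean, where the other KO livers had 7 to 9 and WT livers 2 to 3. Over the 10 livers Dbt had the widest range (1.14) and Hibch the narrowest (0.24). Ivd had the largest spread within groups (SD 0.20), with KO 1 at 2.52 and the other KO livers at 1.80 to 2.1.

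By sex, 0 of the 10 enzymes passed for female minus male in limma, where 11.5% of all genes did. None passed for a difference of the KO effect between the sexes either, against 0.0317% of all genes. Dbt differed by -0.77 (SE 0.14, limma adjusted p = 0.0163) in females and -0.54 (SE 0.14, adjusted p = 0.0824) in males, and the difference between the sexes was -0.23 (SE 0.20, adjusted p = 0.665). Within females Dbt was the 1 enzyme of 10 that passed, against 4.43% of all genes, and within males 0 passed, against 2.36%. In 7 of 10 enzymes the difference lay below 0 in females and in males, against 29.9% of all genes. Bckdk had the largest gap, 0.19 (SE 0.10) in females and -0.12 (SE 0.10) in males, a difference of 0.32 (SE 0.15, adjusted p = 0.404). Acadsb differed by -0.36 (SE 0.10) in females and -0.13 (SE 0.10) in males, a difference of -0.23 (SE 0.15, adjusted p = 0.547). Each sex held 2 or 3 livers a genotype.

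**Figure D4:**
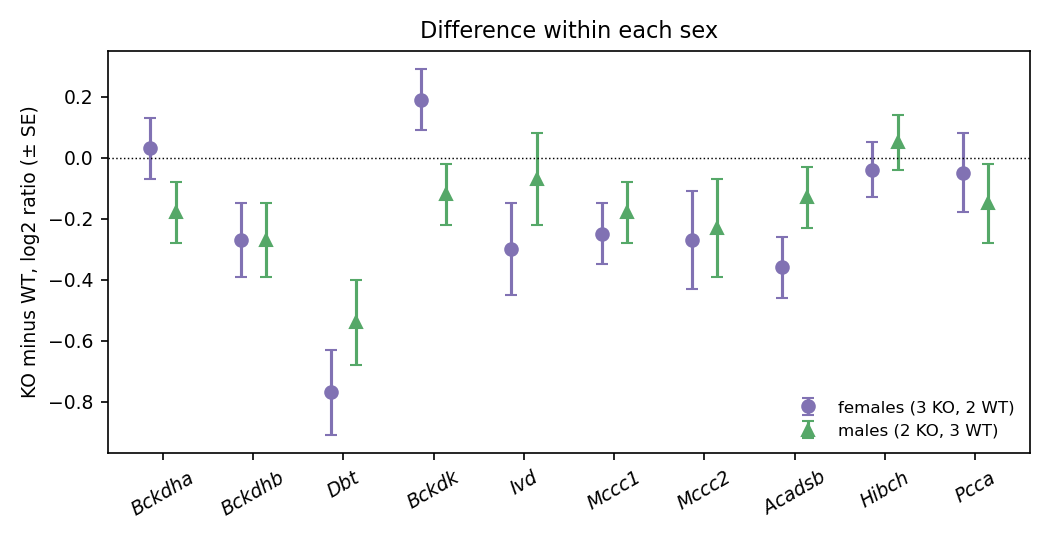
Difference KO minus WT in log2 ratio ± SE within females (circles, 3 KO and 2 WT livers) and within males (triangles, 2 KO and 3 WT livers) for the 10 enzymes. The Dbt points, -0.77 in females and -0.54 in males, lie below all others in both sexes. Bckdha, Bckdk and Hibch lie on opposite sides of 0, with the widest gap for Bckdk.

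The rest of the pathway was read from a list of 18 genes, of which 17 could be tested. Bcat1, the cytosolic aminotransferase, had 2 probes, above background on at most 1 array. Of the 17 genes 3 fell, 0 rose and 14 did not pass, with a median of -0.14, and 7 had an unadjusted p under 0.05. Of all genes 3.08% fell, 2.88% rose and 20.9% had an unadjusted p under 0.05. Besides Ppm1k the genes that fell were Bcat2 and Mmut. Bcat2, the mitochondrial aminotransferase that starts the pathway, had log2 ratios of -0.73, -0.51, -0.50, -0.61 and -0.74 in KO livers and -0.41, -0.43, 0.04, -0.06 and -0.14 in WT livers. The groups did not overlap, and the WT livers of slide 1 were the closest to the KO livers. Bcat2 fell by 0.47 (SE 0.07, limma adjusted p = 0.0045), 1.39-fold lower in KO livers. Its 3 probes disagreed. The one used, at chr7:41765126-41765185 of mm7, gave -0.47, a second gave -0.30 (adjusted p = 0.0559) and the last, at chr7:41751562-41751621, gave 0.01 (adjusted p = 0.966). The call held in 23 of 27 alternatives. It was lost with median centring (-0.31, adjusted p = 0.209) and without the sex term (-0.42, adjusted p = 0.055). Males alone (-0.41, adjusted p = 0.214) and slide 1 alone (-0.20, adjusted p = 0.428) lost it too. Within slide 3 the difference was -0.73.

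Mmut, the methylmalonyl-CoA mutase that ends the isoleucine and valine branch, had 2.54, 2.55, 2.49, 2.51 and 2.49 in KO livers and 2.81, 2.86, 2.86, 2.88 and 2.71 in WT livers. The groups did not overlap and both were tight. Mmut fell by 0.31 (SE 0.06, limma adjusted p = 0.0121), 1.24-fold lower in KO livers. A second probe gave -0.25 (adjusted p = 0.0967) and a further one was above background in 0 livers. The call held in 19 of 27 alternatives, whichever liver was left out among them. It was lost with median centring (-0.27, adjusted p = 0.478), with outlier-flagged spots removed after the background fit (-0.27, adjusted p = 0.27), in the Cy5 channel alone (-0.28, adjusted p = 0.0804) and with the replicate number as a block (adjusted p = 0.139). Fits of females alone (adjusted p = 0.0566), of males alone (adjusted p = 0.306) and within slide 1 or 3 lost it too. In the interaction fit of all 10 livers Mmut passed in females (-0.35, adjusted p = 0.0457) and not in males (-0.28, adjusted p = 0.13). Among those that did not pass were Mmaa, which serves the cobalamin of this mutase (-0.37, adjusted p = 0.0953), and Pccb, the partner of Pcca (0.09, adjusted p = 0.687).

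Sister enzymes with the same chemistry were read from 3 further lists. Of 12 tested genes of the pyruvate, oxoglutarate and oxoadipate dehydrogenase complexes and their kinases and phosphatases, 2 rose and 0 fell, and 8 had an unadjusted p under 0.05. Of all genes 2.88% rose, 3.08% fell and 20.9% had an unadjusted p under 0.05. The 2 that rose were Pdha1, the E1 alpha subunit of the pyruvate complex (0.28, SE 0.07, limma adjusted p = 0.0363, where another probe had 0.13 without passing), and the pyruvate dehydrogenase kinase Pdk1 (0.59, SE 0.15, adjusted p = 0.0478, where another had 0.52, also without passing). The E2 cores closest in role to Dbt had 0.52 for Dlat (adjusted p = 0.0504) and -0.27 for Dlst (adjusted p = 0.0949). Of 11 other acyl-CoA dehydrogenases and electron carriers, relatives of Ivd and Acadsb, 0 passed by limma's adjusted p and 1 had an unadjusted p under 0.05. Of 9 genes of biotin and lipoate supply and other biotin carboxylases 4 had an unadjusted p under 0.05 and 2 rose, pyruvate carboxylase Pcx (0.37, SE 0.07, adjusted p = 0.0127) and acetyl-CoA carboxylase Acacb (0.72, SE 0.19, adjusted p = 0.0477, where its other probe had 0.15, short of passing). Acacb differed by 1.26 in females (adjusted p = 0.00122) and by 0.17 in males (adjusted p = 0.589). The difference of Acacb between the sexes did not pass (limma adjusted p = 0.11). Over the 27 alternatives Pcx passed in 21, Pdha1 in 11, and Pdk1 and Acacb in 8 each. The calls of Pdk1 and Acacb ended without any 1 of KO 1 to 4 or WT 1 to 4 (adjusted p up to 0.117 and 0.157), and that of Pdha1 without any 1 of KO 1 to 4 or WT 2 to 4 (up to 0.104).

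Of 5 transcription factors tied to this pathway 2 fell. Klf15, which drives amino acid breakdown genes in mouse liver and muscle, fell by 0.54 (SE 0.14, limma adjusted p = 0.0405), and a second probe gave -0.71 (adjusted p = 0.00282). Its log2 ratios were 6.04, 6.11, 6.07, 5.73 and 6.41 in KO livers and 6.76, 6.35, 6.69, 6.86 and 6.42 in WT livers, overlapping through KO 5 and WT 2. Ppargc1a, the coactivator of mitochondrial and fasting genes, fell by 0.50 (SE 0.10, adjusted p = 0.0164), with -1.15 at a second probe (adjusted p = 0.000396). Of 5 carriers of branched-chain amino acids 1 fell, Slc43a1 (LAT3), by 1.59 (SE 0.14, adjusted p = 0.000132), with -0.38 to -0.02 in KO livers and 0.80 to 1.83 in WT livers. With slide as a fixed block Klf15 (adjusted p = 0.08) and Ppargc1a (adjusted p = 0.0513) no longer passed, while Slc43a1 did, and with slide as a random block both passed (adjusted p = 0.0304 and 0.0109). Klf15 also lost its call without any 1 of KO 1 to 4, WT 1, WT 3 or WT 4 (adjusted p up to 0.12), and Ppargc1a without WT 3 (adjusted p = 0.0639). Both lost it with median centring (adjusted p = 0.228 and 0.177) and without the sex term (adjusted p = 0.0536 and 0.101). With outlier-flagged spots removed after the background fit Klf15 had -0.28 (adjusted p = 0.822) and Ppargc1a -0.43 (adjusted p = 0.117). Over the 27 alternatives Klf15 passed in 12 and Ppargc1a in 19.

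Profiles most like that of Dbt over the 10 livers were sought among all genes by the root mean square difference between centred log2 ratios. The 3 nearest were Nr5a2, a nuclear receptor of liver (0.114), Nostrin, which binds endothelial nitric oxide synthase (0.118), and Mpzl2, a cell adhesion protein (0.129). Their differences were -0.55, -0.68 and -0.64, and WT 3 was the highest liver in each. Since they were picked for their likeness to Dbt in the same livers, these values follow from the choice and are given without a test.

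Markers of the cells in the sample were read beside these results. Hepatocyte markers were high in all livers, and the mean log2 ratio of 6 of them was 7.10 to 7.24 in KO livers and 7.01 to 7.59 in WT livers. Of these 6 only Tat, tyrosine aminotransferase, passed, and it fell by 0.63 (limma adjusted p = 0.00587). Tat ranged from -1.53 (Cy5 alone) to -0.27 (slide 3 alone) over 27 alternatives and passed in 22, not with outlier-flagged spots removed after the background fit (adjusted p = 0.188). Of 6 endothelial markers 2 rose, Lyve1 (1.47, adjusted p = 0.00681) and Pecam1 (0.26, adjusted p = 0.0458). The mean over the 6 was 3.72 to 4.0 in KO livers and 3.06 to 3.59 in WT livers, without overlap. Lyve1, with the largest difference of the 6, is part of that mean. Stab2 (0.19, adjusted p = 0.126), Kdr (0.16, adjusted p = 0.396), Clec4g (0.09, adjusted p = 0.751) and Cdh5 (0.52, adjusted p = 0.064) did not pass. The mean over 5 bile duct markers did not overlap either, at -3.21 to -2.86 in KO livers and -3.51 to -3.24 in WT livers. Spp1, with the largest difference of the 5 (0.87, adjusted p = 0.0612), is part of that mean. Spp1 had -5.5 to -3.61 in KO livers and -5.79 to -5.56 in WT livers, while Krt19, Krt7, Epcam and Sox9 each overlapped. Of 3 adipocyte markers tested Cidec rose (1.40, adjusted p = 0.0373), with 3.99 in KO 1 and 3.21 in KO 5, the male KO livers, 0.96 to 1.46 in the female KO livers and 0.90 to 1.38 in WT livers. Its difference was 0.36 in females (adjusted p = 0.425) and 2.43 in males (adjusted p = 0.00053), and the interaction did not pass (adjusted p = 0.107). Plin1 (-0.08, adjusted p = 0.656) and Fabp4 (0.40, adjusted p = 0.177) did not pass. Fabp4 differed by -0.03 in females (adjusted p = 0.947) and by 0.83 in males (adjusted p = 0.0168), and its interaction did not pass (adjusted p = 0.2). Adipoq was above background in 0 livers and Lep in 2. None of the tested markers of Kupffer, stellate, bile duct, muscle and blood cells passed by limma's adjusted p, and each of these lists had 0 or 1 with an unadjusted p under 0.05. Pecam1 passed in 4 and Cidec in 13 of 27 alternatives, and Lyve1 in 24. The part of the endothelial markers in the fall of Dbt was not tested.

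**Figure D5:**
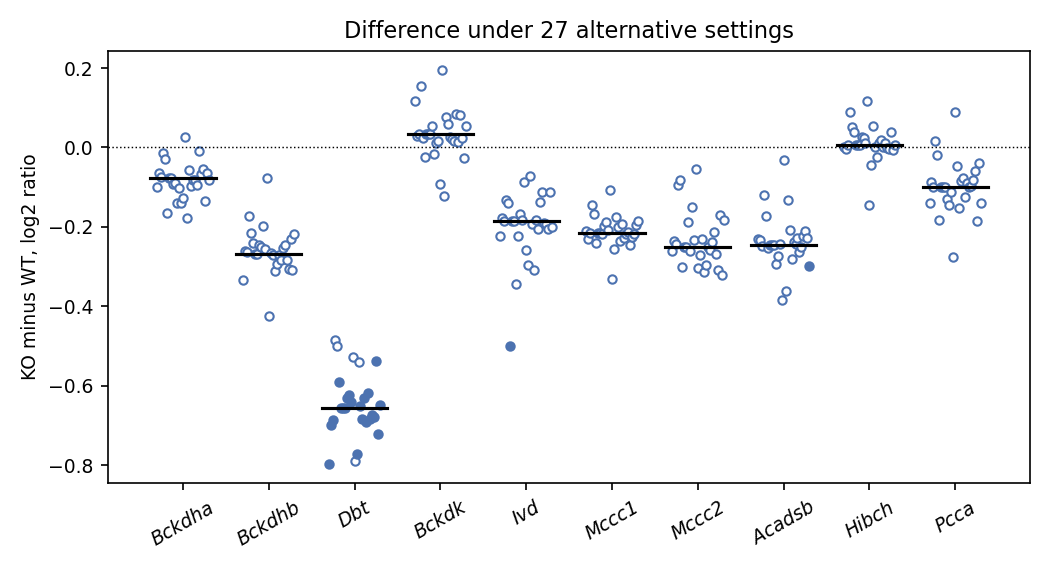
Difference KO minus WT in log2 ratio for the 10 enzymes under 27 alternative settings (points, filled where the gene passed), with a black line at the value reported here. Dbt lies between -0.80 and -0.49 in every setting and passed in 22 of 27, while Ivd and Acadsb passed in 1 each and the other 7 in 0.

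Over those 27 alternatives Dbt was below 0 in 27, and so were Bckdhb, Ivd, Mccc1, Mccc2 and Acadsb. Bckdhb ranged from -0.42 to -0.08 and Mccc1 from -0.33 to -0.11, and neither passed in any of them. Ivd passed with the Cy5 channel alone (-0.50, limma adjusted p = 0.00918). Bckdha, Bckdk, Hibch and Pcca took both signs, and so did Dld.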

How the data were processed

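Total RNA of 10 livers from separate mice was hybridised to Agilent mouse arrays, with livers in Cy5 and reference RNA in Cy3 on every array, per the labels' protocols. The dye orientation never changed, so that dye effects of a probe are shared by KO and WT livers. The authors extracted signals with Agilent Feature Extraction (10.7 per the submitters' processing notes, 10.7.3.1 per the file headers). Among the deposited values, mean spot and local background signals are intensity values on a linear scale, and the deposited LogRatio is a log10 ratio of processed Cy5 over Cy3, per the file headers. A value table by the authors holds log2 ratios, as its columns showed against the arrays (correlation 0.9994 to 0.9996), but its normalisation is not stated in these sources.

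Outlier-flagged spots (169 to 291 per array) were removed before the background fit, an order taken over from earlier work on these data. Mean signals were then corrected by normexp (offset 50), normalised by loess within arrays and averaged over spots of a probe. Probes were kept where Cy5 was well above background on 4 or more of 10 arrays (26956), and the probe with the highest mean Cy5 signal represented a gene (18934 genes). Probes were named by RefSeq's GRCm38.p6 table (22951 by accession, 6659 by symbol, 3109 by synonym), and 8455 kept the files' names. Models were fitted with limma 3.58.1 in R 4.3.3 on genotype and sex, with Benjamini-Hochberg adjustment over all genes and a threshold of 0.05, and with an interaction for sex. The model fit was tested on simulated log ratios with independent noise. These held no slide effect and passed through no background or normalisation step, so those choices were not tested by it. Precision is limited by 5 livers a group.

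All 10 members are named, as are genes of the lists that passed and, for Dbt, the 3 nearest profiles. A further gene of the pathway list is counted but not reported by name here. The members and lists were chosen with earlier results of these data known.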

Additional observations from a re-analysis of the deposited data

Results flagged for a closer look

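The Dbt value of WT 3 (3.05) stood apart from the other WT livers, the nearest of which was at 2.64. Its gap took a share of 0.774 of the range of the WT group, above Dixon's critical value of 0.71 for 5 samples. It was the 1 case among 48 groups checked, from 24 genes in KO and in WT livers, where chance gives about 1 in 20 groups. WT 3 was also the highest liver for Hibch (2.70) and the lowest for Pcca (2.40). Without WT 3 the Dbt difference was -0.54 (limma adjusted p = 0.0102).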

How the results depend on the processing

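Alternatives changed the background correction, normalisation, filter on dim probes, probe per gene, sex term, slide, pairing and livers included. The number of genes that passed (1128) was 278 with median centring (71.9% of them higher in KO livers, against 48.3% with loess, and a median of all genes of 0.066), 337 with flags removed after the background fit (58.8% higher), 619 without the sex term, 11 in slide 1 alone, 136 in males alone and 591 to 1173 with 1 liver left out (591 without WT 3, 596 without KO 1, 666 without KO 4). In slide 3 alone 60.5% of calls were higher. The number of enzymes that passed (1) was 0 with median centring, flags removed after the fit, slide 1, slide 3 or males alone, 2 with the Cy5 channel alone (Dbt and Ivd), and 1 to 2 with 1 liver left out (2 without WT 5, Dbt and Acadsb). For sex it was 1 with the scanner's log ratio (Acadsb, -0.28), and 0 to 1 with 1 liver left out (Acadsb, -0.29, without WT 5). Dbt lost its call in males alone (-0.541, limma adjusted p = 0.076), and ranged from -0.72 to -0.54 with 1 liver left out.

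Signs turned in small differences. Hibch was -0.005 in the authors' table, -0.144 in slide 3 alone, -0.045 in females alone and -0.023 to 0.039 with 1 liver left out. Pcca was 0.017 with median centring and 0.089 in slide 3 alone. Dld was 0.048 with median centring, 0.014 with Cy5 alone and -0.085 to 0.007 with 1 liver left out. Bckdk was -0.023 with Cy5 alone, -0.016 with slide as a fixed block, -0.091 in slide 3 alone, -0.123 in males alone and -0.027 to 0.084 with 1 liver left out. Bckdha was 0.026 in females alone. The cause of these turns was not tested.

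Same-numbered KO and WT livers deviated together in 4 of 5 pairs (r from -0.425 to 0.53), and the same-numbered liver was the closest match for 2 of 5 numbers, so the numbers were not taken as pairs. In those 4 pairs both livers were of the same sex, while KO 2 was female and WT 2 male (r = -0.425). Sex was left in these deviations, so a link by number and a link by sex cannot be told apart here. With a replicate block 303 genes passed, and Dbt (-0.651, adjusted p = 0.0163), Bcat2, Slc43a1 and Lyve1 kept their calls. Ppm1k (adjusted p = 0.192), Mmut (0.139), Pdha1 (0.189), Pdk1 (0.193), Pcx (0.127), Acacb (0.18), Klf15 (0.128), Ppargc1a (0.0955), Tat (0.062), Pecam1 (0.206) and Cidec (0.169) lost theirs, with limma adjusted p in each case. Slides 2 and 4 held 1 genotype each and gave no difference of their own. The reference signal of the second Mccc2 probe was above background on 4 of 10 arrays.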
